A study of Homo sapiens with 4 samples.

Results

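Small nucleolar RNA host genes (SNHGs) are long non-coding RNA (lncRNA) genes whose introns, and sometimes exons, carry small nucleolar RNAs (snoRNAs). The host genes were taken from the count table as the rows named SNHG followed by a number, together with GAS5, EPB41L4A-AS1 and ZFAS1. This gave 31 of the 60606 genes of the table, on 15 chromosomes, and RefSeq lists each of the 31 as a lncRNA gene. RNA was sequenced from DaroR cells, a darolutamide-resistant line made from LNCaP, a prostate cancer line, and kept in medium with darolutamide. The siControl group holds 2 libraries of DaroR cells treated with control siRNA, and the siLOC730101 group holds 2 libraries of DaroR cells treated with a pool of siRNAs against the lncRNA LOC730101. All 4 libraries are polyA RNA of the same resistant line, so that no group without resistance or without transfection is compared here. The comparison asks whether the host genes differed between DaroR cells with and without knockdown of LOC730101.

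SnoRNAs guide the chemical modification of ribosomal and small nuclear RNA. Box C/D snoRNAs guide the methylation of ribose and box H/ACA snoRNAs guide pseudouridylation, while the related scaRNAs act on small nuclear RNA in Cajal bodies. Most are cut out of the introns of a host transcript after splicing, and the spliced remainder of an SNHG is often exported to the cytoplasm and degraded by nonsense-mediated decay (NMD). Several host transcripts begin with a terminal oligopyrimidine (TOP) tract, as ribosomal protein mRNAs do, and several, such as GAS5 and SNHG1, are widely studied in tumour cell growth.

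The snoRNAs inside the host genes are shown first, because they define the family. The count table has 133 snoRNA or scaRNA rows that lie inside a host gene on its strand, 108 of box C/D, 21 of box H/ACA and 4 scaRNAs. At least 1 such row was found in 28 of the 31 host genes. GAS5, SNHG27 and SNHG28 have none, so the snoRNA results below do not cover GAS5. SNHG14, the long transcript of the imprinted Prader-Willi region, holds 83 of them. The 4 sequences below, from GENCODE transcripts on GRCh37, are given to show what host genes of different levels and changes carry, with box C (TGATGA) and box D (CTGA) in capitals.
SNORD60, in SNHG19, chr16:2205024-2205106, minus strand: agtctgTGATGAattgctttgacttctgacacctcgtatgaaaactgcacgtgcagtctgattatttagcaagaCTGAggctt
SNORD104, in SNHG25, chr17:62223443-62223512, plus strand: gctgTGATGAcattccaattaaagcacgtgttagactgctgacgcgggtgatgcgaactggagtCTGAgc
SNORD48, in SNHG32, chr6:31803040-31803103, plus strand: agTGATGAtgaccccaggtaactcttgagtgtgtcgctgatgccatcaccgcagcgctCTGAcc
SNORD12C, in ZFAS1, chr20:47895477-47895565, plus strand: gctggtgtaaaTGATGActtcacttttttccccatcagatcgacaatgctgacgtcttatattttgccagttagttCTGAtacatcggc
Only snoRNAs that could be matched on GRCh37 by name, host and length were searched. These were 84 of the 108 box C/D rows and 8 of the 21 box H/ACA rows, and none lies in SNHG1 or SNHG29. On the transcript strand, TGATGA in the first 20 bases together with CTGA in the last 15 was found in 74 of these 84 box C/D snoRNAs inside host genes (88.1%). It was found in 197 of all 390 SNORD transcripts (50.5%) and in 0 of 399 SNORA transcripts. Of the 84, 72 lie in SNHG14 and 69 of those are copies of SNORD115 or SNORD116, so they are not independent sequences. Outside SNHG14 the letters were found in 10 of 12. For box H/ACA snoRNAs, the letters ACA followed by the last 3 bases were found in 2 of 8 inside host genes (25%) and in 60.4% of all 399 SNORA transcripts. The annotated sequences of SNORA60, SNORA71A, SNORA71C and SNORA71D end directly in ACA, so this search could not match them. The low share therefore does not show that the box is missing. SNORA71A, SNORA71B, SNORA71C and SNORA71D are related copies inside SNHG17, so the 8 are not independent sequences.

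Reads on these snoRNA rows were few in the polyA libraries. Of the 133 rows, 123 had 0 counts in all 4 libraries. SNORA71B, inside SNHG17, had the most reads, 36 and 77 under siControl against 14 and 13 under siLOC730101. Both siLOC730101 libraries were below both siControl libraries, but the log2 fold change of -1.75 had an adjusted p of 0.326 in edgeR. SNORA73B, inside SNHG3, had 35, 35, 27 and 14 counts in siControl 1, siControl 2, siLOC730101 1 and siLOC730101 2. In the same order, SNORD104 had 16, 9, 15 and 20 counts, SNORD12C had 18, 19, 3 and 3 counts and SNORD99, inside SNHG12, had 7, 4, 7 and 2 counts. SNORD12C thus had fewer counts in both siLOC730101 libraries, and its log2 fold change of -2.24 did not pass the test (edgeR adjusted p = 0.505). A read that overlaps exons of more than 1 gene was not assigned in the count table, and 77 of the 133 rows share bases with an annotated exon of their host. Of these 77 rows, 2 had any count, so the counts are no measure of the mature snoRNAs.

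The start of the host transcripts was examined for a TOP tract. A RefSeq promoter sequence on GRCh38.p14 was found for 27 of the 31 host genes. In 7 of the 27 (25.9%), the annotated start was a C followed directly by C or T letters to a run of at least 5, compared with 4.07% of all 35116 promoters of the table. The exact letters CTTT at the start were found in 4 host genes (14.8%), SNHG5, SNHG19, SNHG32 and ZFAS1, and in 0.914% of all promoters. Both searches were made on the transcript strand only, and each CTTT start here also belongs to the longer run. The windows below show 20 bases before and 20 bases from the annotated start for these 4 genes and for SNHG1 and GAS5, with the run of C and T letters that begins with a C at the start in capitals.
SNHG19, chr16:2155339-2155378, minus strand: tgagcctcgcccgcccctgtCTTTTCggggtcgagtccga
SNHG32, chr6:31834896-31834935, plus strand: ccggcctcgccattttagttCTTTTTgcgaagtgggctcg
SNHG5, chr6:85678714-85678753, minus strand: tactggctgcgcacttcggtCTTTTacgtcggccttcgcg
ZFAS1, chr20:49278622-49278661, plus strand: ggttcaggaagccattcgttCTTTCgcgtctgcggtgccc
SNHG1, chr11:62855866-62855905, minus strand: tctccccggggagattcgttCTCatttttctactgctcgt
GAS5, chr1:173869026-173869065, minus strand: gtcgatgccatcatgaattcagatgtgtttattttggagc
SNHG1 has a shorter run of 3 letters, and the RefSeq start of GAS5 is not a C. The search depends on the annotated start, and a start without the run says nothing of the start used in DaroR cells.

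The libraries held 39213498 to 53368158 counts, and host genes took 0.155% to 0.16% of the counts of a library. LOC730101 itself had 47.4 and 50.6 CPM (a gene's counts scaled to a common library size, with TMM normalization) in siControl and 15.4 and 17.9 in siLOC730101, a log2 fold change of -1.56 (edgeR adjusted p = 4.34e-06). Of the luminal prostate markers, KLK3 had 1820 and 1487 CPM in siControl and 1753 and 1916 CPM in siLOC730101, and KLK2 was between 847.4 and 1001 CPM in the 4 libraries. Of 7 markers of other cell types, TP63, KRT5 and PTPRC had 0 counts throughout, and the sum of the 7 was 13.7 to 17.9 CPM. Most of that sum was COL1A1, with 14.7 and 11.0 CPM in siControl and 11.0 and 12.2 CPM in siLOC730101. VIM had 2.33 to 3.77 CPM. In bulk RNA, a change in the share of cells that express a gene and a change in RNA per cell cannot be told apart.

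The level of the host genes spanned more than 3 orders of magnitude. Of the 31, 28 passed the expression filter of edgeR. SNHG18, SNHG27 and SNHG28 did not pass it. SNHG28 had 0 counts in every library, SNHG18 had 2 counts in siControl 1 and none elsewhere, and SNHG27 had 3, 6, 6 and 0 counts. SNHG14, SNHG29 and GAS5 together held 63.8% of all counts on host genes. SNHG14 had the highest mean CPM, with 406.6 and 390.5 in siControl and 388.4 and 355.5 in siLOC730101. SNHG29, which hosts the SNORD49 snoRNAs, had 287.2 and 309.9 CPM in siControl and 315.4 and 356.4 CPM in siLOC730101. GAS5, a growth arrest-associated lncRNA that hosts box C/D snoRNAs, had 274.9 and 313.4 CPM in siControl and 292.8 and 318.5 CPM in siLOC730101. The ranges of SNHG29 and GAS5 over the 4 libraries overlapped, so that their order is within the spread, and SNHG14 overlapped SNHG29 narrowly, in siLOC730101 2. SNHG1 was next, at 78.7 to 100.9 CPM, followed by SNHG8 at 59.3 to 74.9 CPM, SNHG16 at 52.1 to 54.1 CPM and SNHG3 at 48.3 to 51.5 CPM. The ranges of SNHG16 and SNHG3 did not overlap.

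**Figure D1:**
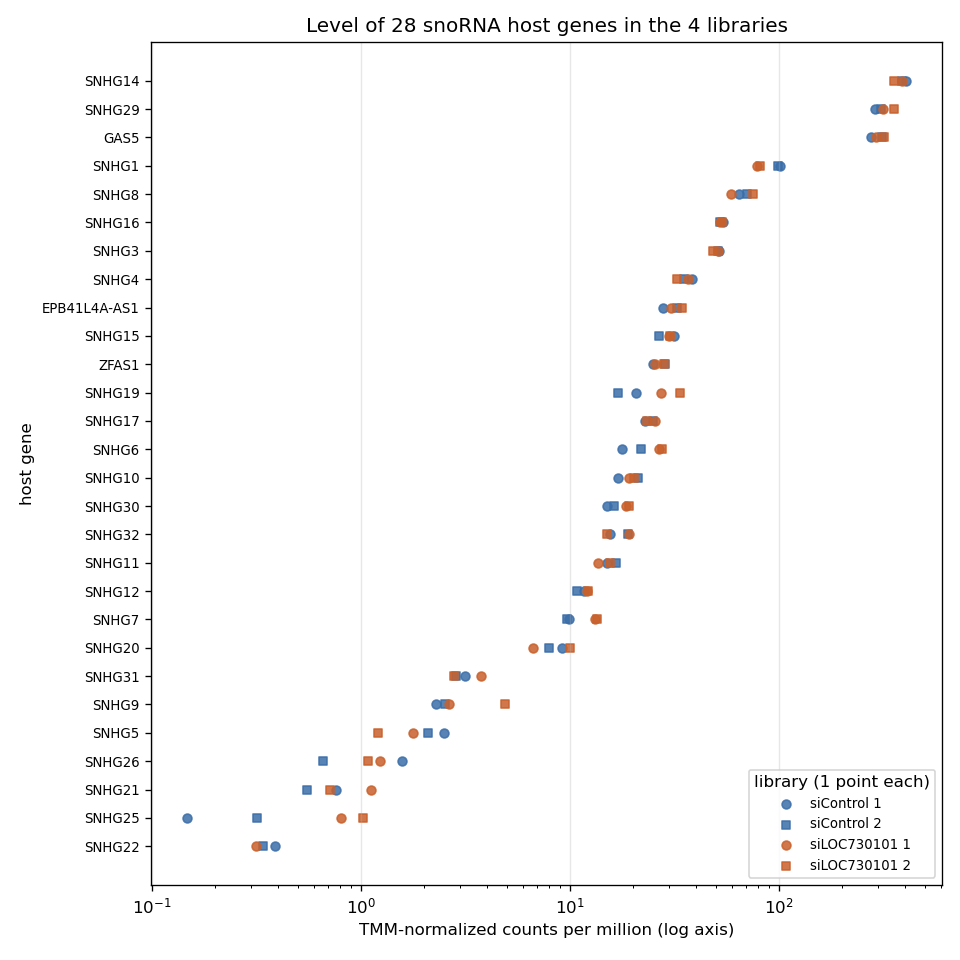
Each row is a host gene that passed the filter and each point a library, on a log axis of TMM-normalized CPM. SNHG14, SNHG29 and GAS5 lie to the right of the other 25 genes. SNHG19, SNHG6 and SNHG7 show the siLOC730101 points to the right of the siControl points, and SNHG1 shows them to the left. SNHG22 has no point for siLOC730101 2, where it had 0 counts.

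Per kilobase of annotated exon, the order changed, because exon lengths range from 340 nt for SNHG25 to 122609 nt for SNHG14. GAS5 had the highest level, 55.7 to 64.6 CPM per kilobase over the 4 libraries. SNHG19 came next at 27.8 to 54.7, then SNHG29 at 32.1 to 39.8 and SNHG1 at 19.8 to 25.4 CPM per kilobase. SNHG19 and SNHG29 overlapped, while GAS5 lay above both in each library. SNHG3, with 11.8 to 12.6, and SNHG30, with 9.31 to 11.8 CPM per kilobase, followed, and SNHG14 fell to place 18 of 31 with 2.90 to 3.32 CPM per kilobase. These lengths are the union of all exons annotated for a gene name, so genes with many long annotated isoforms are lowered on this scale.

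SNHG5, the host of the SNORD50 snoRNAs, had few counts, 135 and 98 under siControl against 73 and 46 under siLOC730101. In the exons within its RefSeq span, 47.2% of the bases are shared with exons of other genes on the same strand, the pseudogene PKMP3 among them. The genes that overlap exons of SNHG5 on its strand, PKMP3, ENSG00000271793 and SNORD50B, had 0 counts in every library. Reads that touch both annotations were left unassigned, so the level of SNHG5 is a lower limit, and the size of that loss was not tested. Exon sharing of some kind was found in 28 of the 31 host genes, and in 7 of them over 25% of the exon bases are shared with a gene on the opposite strand. The counting had no strand option, so reads on bases shared with the opposite strand were also left unassigned and counted for neither gene.

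After siLOC730101, 0 of the 28 host genes tested passed an adjusted p of 0.05 with the quasi-likelihood test of edgeR. Over all 19349 genes tested, 0.212% were called higher and 0.0724% were called lower. At an unadjusted p under 0.05, 4 host genes were higher (SNHG6, SNHG7, SNHG19 and SNHG25) and 1 was lower (SNHG1), where 6.43% of all genes were higher and 4.39% were lower. Of the 20 host genes to which DESeq2 gave an adjusted p, it called SNHG19 higher and SNHG1 lower, and over all 9653 genes with one it called 2.41% higher and 0.663% lower. Among the 28 genes, 17 had a log2 fold change above 0 and the median was 0.049, compared with 49.6% of all genes tested above 0 and a median of -0.0021. Both siLOC730101 libraries lay above both siControl libraries in 8 host genes and below them in 4, where this held for 21.3% and 20.5% of all genes tested. SNHG6 and SNHG7 are named here because of their p-values, outside the rule for named genes.

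**Figure D2:**
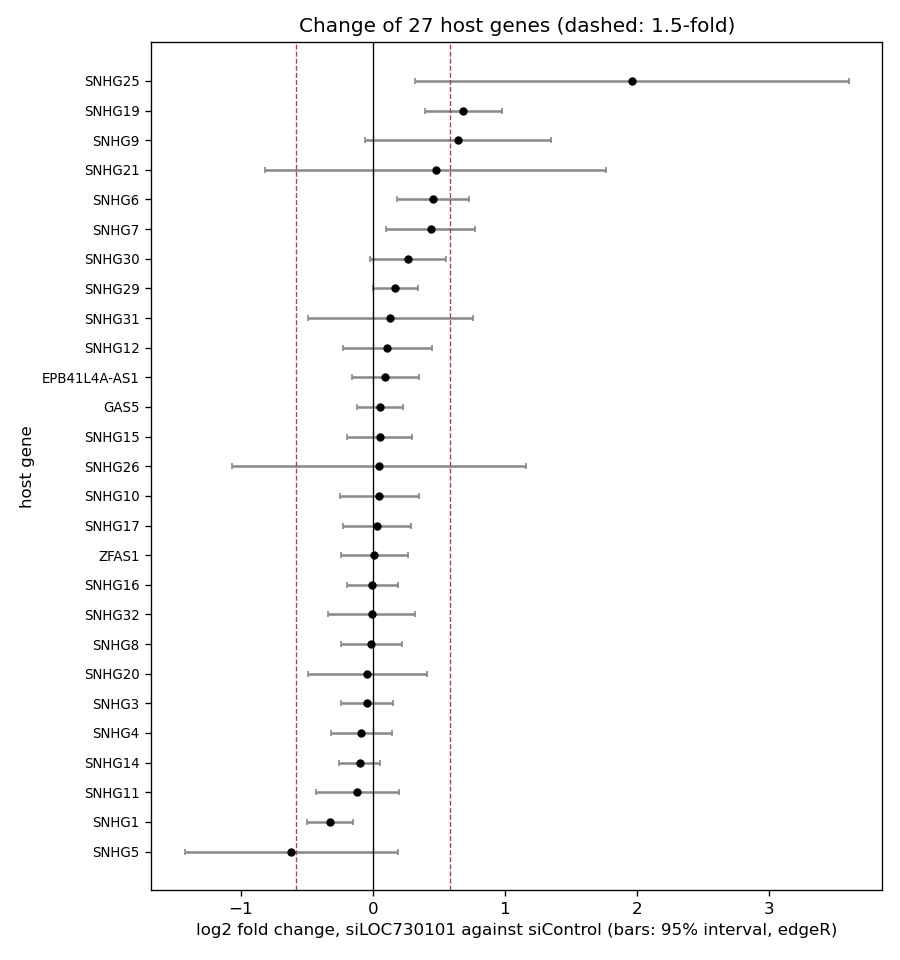
Points are log2 fold changes of siLOC730101 against siControl for 27 host genes, with 95% intervals from edgeR, and dashed lines mark a 1.5-fold change. For 18 genes the interval lies between the dashed lines, while the intervals of SNHG19, SNHG6, SNHG7, SNHG25 and SNHG1 lie on one side of 0. SNHG22 is left out of the plot, since its standard error is 1.23.

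SNHG19, a short gene of 614 nt on the minus strand of chromosome 16 (GRCh38, 2154792 to 2155405), was the host gene with the smallest p. It had 20.7 and 17.1 CPM in siControl and 27.3 and 33.6 CPM in siLOC730101, from 799 to 1274 counts. Both siLOC730101 libraries were higher than both siControl libraries. The log2 fold change was 0.69 ± 0.14 (SE, edgeR adjusted p = 0.0508), just outside the threshold. SNHG19 passed the threshold in 10 of the 14 alternatives tried, with DESeq2 among them (DESeq2 adjusted p = 0.00457), and its adjusted p ranged from 4.01e-06 to 0.0846, with the highest value without siControl replicate 2. SNHG9, another host gene of 615 nt that lies 189.3 kb away and hosts SNORA78, had 2.29 and 2.54 CPM in siControl and 2.65 and 4.93 CPM in siLOC730101. Its log2 fold change of 0.65 (edgeR adjusted p = 0.516) became 0.13 without siLOC730101 replicate 2.

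SNHG1, on chromosome 11 of GRCh38 (62851978 to 62855953, minus strand), hosts SNORD22 and 5 other box C/D snoRNAs. It had 100.9 and 99.3 CPM in siControl and 78.7 and 81.4 CPM in siLOC730101. The 2 groups did not overlap and were separated by more than the distance between libraries of a group. The log2 fold change was -0.32 ± 0.081 (SE, edgeR adjusted p = 0.116). It lay between -0.36 and -0.29 over the 14 alternatives and had an adjusted p under 0.05 in 5 of them, DESeq2 included (adjusted p = 0.0185).

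SNHG6, on chromosome 8, hosts SNORD87. It had 17.9 and 21.9 CPM in siControl and 26.8 and 27.7 CPM in siLOC730101, a log2 fold change of 0.46 ± 0.13 (SE, edgeR adjusted p = 0.163). In the alternatives, the adjusted p of SNHG6 lay between 0.0131 and 0.493, with the upper value without siControl replicate 1. SNHG7, on chromosome 9, hosts SNORA17A and SNORA17B. It had 9.95 and 9.72 CPM in siControl and 13.1 and 13.5 CPM in siLOC730101, a log2 fold change of 0.44 ± 0.16 (SE, edgeR adjusted p = 0.285). The 2 groups were apart in both genes. SNHG6 shares 58.9% of its exon bases with the opposite strand, mainly with MCMDC2, and SNHG7 shares 30.3% there, with DIPK1B. Reads on these shared bases were counted for neither gene. The log2 fold changes of MCMDC2 (0.36) and DIPK1B (0.38) had the same sign as those of the host genes and did not pass the test, and their part in the values of SNHG6 and SNHG7 was not tested.

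Among the other abundant host genes, both siLOC730101 libraries lay below both siControl libraries in SNHG14 and above them in SNHG29, and neither passed the test. SNHG14 had a log2 fold change of -0.10 with a 95% interval from -0.26 to 0.058, and it ranged from -0.16 to -0.040 when each library was left out, with the value nearest 0 without siLOC730101 replicate 2. UBE3A, which lies opposite SNHG14, had -0.099. SNHG29 had a log2 fold change of 0.17 ± 0.080 (SE, edgeR adjusted p = 0.462), and its adjusted p was 0.00995 without siLOC730101 replicate 1, while the log2 fold change was 0.077 without siLOC730101 replicate 2. GAS5 had 0.055 with an interval from -0.12 to 0.23, and its sign turned to -0.035 without siControl replicate 1 and to -0.0091 without siLOC730101 replicate 2. SNHG16, the host of SNORD1 snoRNAs, had 54.1, 52.1, 52.4 and 53.8 CPM in siControl 1, siControl 2, siLOC730101 1 and siLOC730101 2, a log2 fold change of -0.0015 with an interval from -0.20 to 0.19. ZFAS1, the antisense neighbour of ZNFX1 that hosts the SNORD12 snoRNAs, had 25.01, 28.5, 25.6 and 28.2 CPM in that order, and its log2 fold change of 0.010 had an interval from -0.24 to 0.27. EPB41L4A-AS1, which hosts SNORA13, had 27.9, 32.7, 30.4 and 34.4 CPM, and its log2 fold change of 0.096 had an interval from -0.16 to 0.35. In these 3 genes the siControl and siLOC730101 libraries overlapped. For SNHG8, at -0.011, the siLOC730101 libraries differed from each other, at 59.3 and 74.9 CPM, by more than the siControl libraries did, at 64.8 and 70.5 CPM. SNHG3 had a log2 fold change of -0.042, SNHG11 of -0.12 and SNHG30 of 0.27, and their edgeR adjusted p-values were 0.928, 0.852 and 0.51. SNHG11 ranged from -0.22 to -0.011 when each library was left out.

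The host genes with the fewest reads had the widest intervals. SNHG25, which hosts SNORD104, had counts of 8 and 15 under siControl against 33 and 39 under siLOC730101, a log2 fold change of 1.96 with an interval from 0.32 to 3.61 (edgeR adjusted p = 0.336). The counts of the 2 groups did not overlap. SNHG22, the host of SCARNA17, had counts of 21 and 16 under siControl against 13 and 0 under siLOC730101, and the fitted log2 value of -1.18 had an interval from -3.80 to 1.45. That value rests on siLOC730101 replicate 2, with 0 counts, and was -0.21 without it. SNHG21 had 41, 26, 46 and 27 counts, a log2 fold change of 0.48 with an interval from -0.82 to 1.77, which was 0.12 to 0.76 when each library was left out. SNHG5 had a log2 fold change of -0.62 with an interval from -1.43 to 0.19, and it was -0.37 without siLOC730101 replicate 2. The intervals of SNHG21 and SNHG22 hold changes of 1.5-fold in both directions.

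The 3 host genes with exons under 700 nt, SNHG9, SNHG19 and SNHG25, had log2 fold changes between 0.65 and 1.96. The highest, SNHG25, had only 8 to 39 counts per library, and SNHG9 fell to 0.13 without siLOC730101 replicate 2. The correlations below include both genes. Both host genes with exons of 12000 nt or more, SNHG5 and SNHG14, were below 0, and of the 1500 genes tested in that length class 33.8% were above 0, with a median of -0.061. Across the 28 host genes, the log2 fold change and the log10 exon length had a Pearson r of -0.566 and a Spearman rho of -0.521, as a description over genes that share the same 4 libraries. Across all 19349 genes tested the same values were 0.033 and -0.056, and the 1442 genes under 700 nt had a median log2 fold change of -0.12, with 42.9% above 0. Among 33 genes of under 700 nt with a mean of 10 to 50 CPM, the level of SNHG19, the median was 0.17, and 97% of them lay at or below SNHG19. SNHG19 is itself 1 of the 33 and was picked out for its change, so its place among them is a description and no test.

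**Figure D3:**
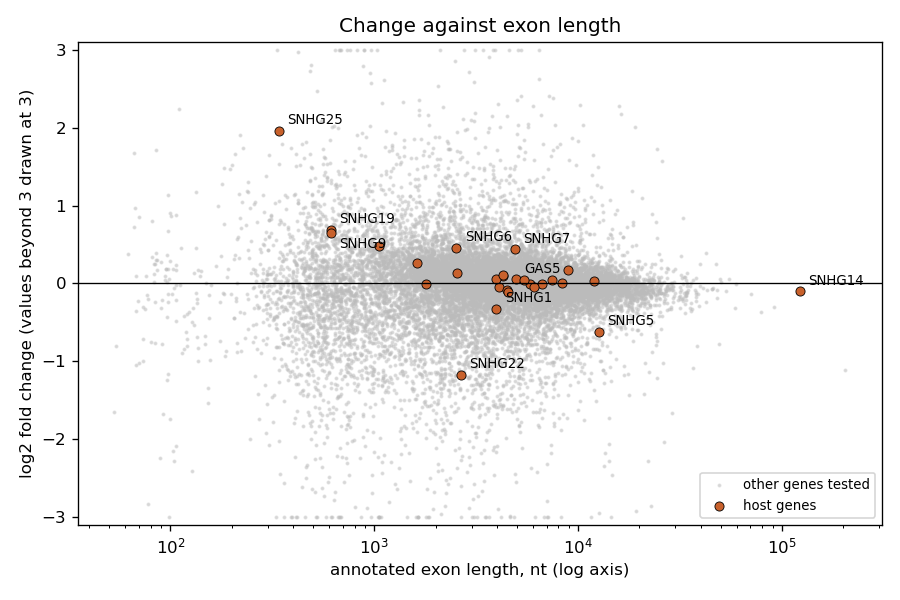
The log2 fold change of each gene is plotted against its annotated exon length on a log axis, with host genes in orange and other genes in grey. The short host genes SNHG9, SNHG19 and SNHG25 lie at 0.65 or above, and the longest, SNHG14, lies at -0.10. Values beyond 3 are drawn at 3.

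The 6 tested host genes with a C and T run at the RefSeq start had a median log2 fold change of 0.00060, and the other 18 tested genes with a promoter sequence had a median of 0.040. Within the first set, the values ranged from -0.62 for SNHG5 to 0.69 for SNHG19, so that genes with the same kind of start lay on both sides of 0.

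Genes that act with snoRNAs and their hosts were compared from 3 lists. The 17 snoRNP genes encode the core proteins of box C/D particles (NOP56, NOP58, FBL and SNU13), of box H/ACA particles (DKC1, NHP2, NOP10 and GAR1) and assembly factors. None of the 17 passed in edgeR, 1 was higher at an unadjusted p under 0.05, and the median log2 fold change was 0.11. NHP2 had 45.6 and 46.9 CPM in siControl and 52.7 and 67.5 CPM in siLOC730101 (0.38 on the log2 scale, edgeR adjusted p = 0.177). SNU13 had a log2 fold change of 0.16 (edgeR adjusted p = 0.496). With DESeq2, too, 0 snoRNP genes passed. The 18 NMD factor genes, UPF1, the SMG genes and the exon junction complex among them, had a median log2 fold change of -0.030. None passed in edgeR, 0 had an unadjusted p under 0.05, and DESeq2 called 0 of them. EIF4A3, a core protein of the exon junction complex, had a log2 fold change of 0.13 (edgeR adjusted p = 0.628), and NBAS had -0.12 (edgeR adjusted p = 0.659).

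The last list holds 43 protein-coding genes that host snoRNAs, many of them ribosomal protein and translation factor genes. NOP56 and DKC1 are also in the snoRNP list. Of the 43 genes, 35 had a log2 fold change above 0, with a median of 0.11, where 49.6% of all genes tested were above 0. Each ribosomal protein gene of the list was above 0, from 0.086 for RPL23A to 0.397 for RPL23. The genes below 0, TAF1D at -0.180 among them, all belong to the rest of the list. RPL23, a protein of the large ribosomal subunit, was the one that rose with an adjusted p under 0.05, where 0.212% of all genes tested did. It went from 719.9 and 796.7 CPM in siControl to 956.7 and 1040.0 CPM in siLOC730101 (0.40 ± 0.074 SE on the log2 scale, edgeR adjusted p = 0.0316). Without siControl replicate 1, 0 genes of the list passed the threshold. At an unadjusted p under 0.05, 12 of the 43 genes were higher and 0 were lower, compared with 6.43% and 4.39% of all genes tested. Apart from EEF1B2 and TPT1, these 12 were ribosomal protein genes, so the values do not describe snoRNA hosts as a whole. The count of passing genes was 18 without siLOC730101 replicate 1, where 4.30% of all genes were also called higher. It was 3 without siControl replicate 2 and 2 without siLOC730101 replicate 2, where 0.543% and 0.355% of all genes were called higher. A search for a C and T run at the RefSeq start found it in 40% of the 40 promoter sequences of this list.

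**Figure D4:**
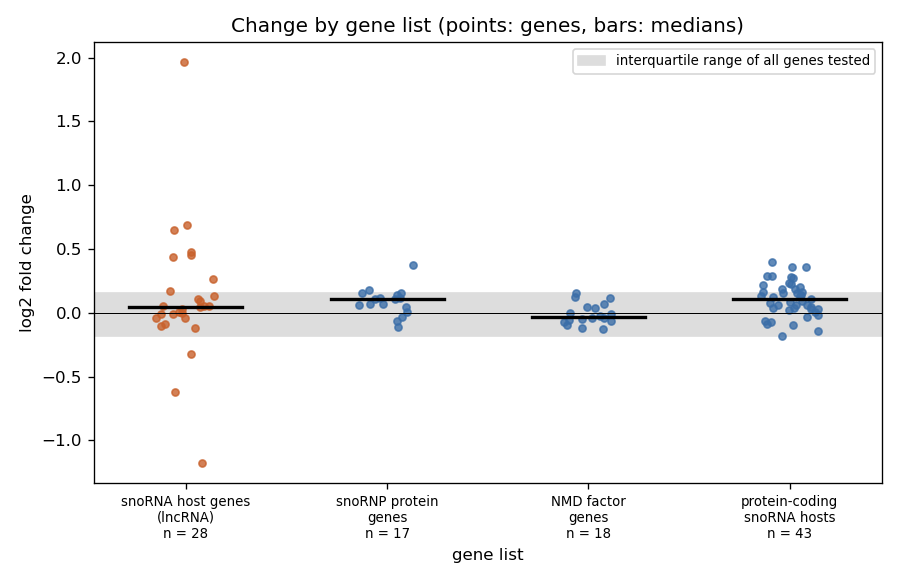
Points are log2 fold changes of the genes of each list, black bars are medians, and the grey band is the interquartile range of all genes tested. The host lncRNA genes have the widest range, from -1.18 to 1.96 around a median of 0.049. Both ends of it are genes with few reads, SNHG22 with 0 to 21 counts and SNHG25 with 8 to 39 counts per library. The protein-coding hosts and snoRNP genes have medians of 0.11 and the NMD factors of -0.030. NOP56 and DKC1 belong to both the protein-coding hosts and the snoRNP genes.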

How the data were processed

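RNA sequencing of 2 siControl and 2 siLOC730101 libraries of DaroR cells was analysed. The authors deposited raw counts per gene name, made with featureCounts 2.0.1 on hg38 and gencode version 41 according to the file header, with no paired-end, strand, multi-mapping or overlap option. The methods name Trim-galore and STAR with hg19, and the submitters' processing notes name BWA, so that the aligner is uncertain. Of the genes with 1 to 20 counts, 66% to 70.1% had an even count, which bears on whether mates were counted apart, and halved counts were an alternative. The labels do not say whether replicates came from separate cultures, so that p-values measure the spread between these libraries.

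Counts were filtered with filterByExpr, scaled with TMM and tested with glmQLFit and glmQLFTest of edgeR 4.0.16 (legacy method) in R 4.3.3, with Benjamini-Hochberg adjustment over 19349 genes and a threshold of 0.05. The total residual degrees of freedom of the test had a median of 15.07. For groups of 2 and 2 libraries, the smallest two-sided p of an exact permutation test is 0.333. CPM uses TMM-scaled library sizes. DESeq2 1.42.0, other scalings and filters, a replicate block and leaving out each library were alternatives. Sequences and searches used Python 3.11.15.

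The host genes and lists were chosen with earlier results of these data known. Named genes were GAS5, ZFAS1, EPB41L4A-AS1, any host gene with an adjusted p under 0.05, the 6 highest by CPM and by CPM per kilobase, the 4 highest and 4 lowest log2 fold changes, those that failed the filter, and from each other list up to 4 genes past the threshold or else the 2 with the smallest p. The sum over the luminal markers is not reported here.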

Additional observations from a re-analysis of the deposited data

How the results depend on the processing

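LOC730101 kept its direction and its call in each of the 14 alternatives. The reported test called 0 host genes, and the number of host genes called higher was 2 with any gene of at least 1 count, 2 with the replicate block, and 1 each with a CPM above 1 in at least 2 libraries, library size only, DESeq2, the legacy method off, robust moderation and halved counts. The number called lower was 1 with the 1-count filter, with DESeq2 and with the replicate block. In these settings, 0.354%, 0.663% and 0.863% of all genes with an adjusted p were called lower, in that order. When each library was left out, 0 to 3 were called higher and 0 to 1 lower. Over all genes with an adjusted p, the share called higher was 1.01% with the 1-count filter, 2.51% with the replicate block, 2.41% with DESeq2, 0.248% to 0.699% in the other 5 of these settings and 0.355% to 4.30% with a library left out. A fit with a library left out has only 1 library in one of the groups. The numbers called higher or lower in such a fit are therefore a description, and no conclusion is drawn from them. At an unadjusted p under 0.05 in edgeR, 4 host genes were higher and 1 was lower, where 6.43% and 4.39% of all genes tested were. The median of the host genes was 0.033 with the CPM filter, 0.018 with upper-quartile factors and 0.012 with library size only, which shift the median of all genes to -0.033 and -0.039. It ranged from 0.0058 to 0.096 with each library left out. It was 0.13 for SNHG31, the single tested host gene that shares no exon base, and, in alternatives chosen after seeing the data, 0.032 for genes over 1000 nt and for genes with a mean CPM of at least 5.

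The snoRNP list had 1 gene called higher with the 1-count filter and 1 with the replicate block, where 1.01% and 2.51% of all genes were. With a library left out, its median ranged from 0.021 to 0.16. The NMD median was -0.060 with upper-quartile factors, -0.066 with library size only and -0.033 to 0.022 with a library left out. Of the protein-coding hosts, the number called higher was 7 with the 1-count filter, 5 with DESeq2, 12 with the replicate block, 2 each with the CPM filter, library size only, the legacy method off and halved counts, and 0 to 18 with a library left out, with medians from 0.049 to 0.19.

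Signs turned in host genes near 0. ZFAS1 was -0.0044 with the CPM filter, -0.021 with upper-quartile factors and -0.028 with library size only, and -0.080 to 0.11 with a library left out. With a library left out, GAS5 ranged from -0.035 to 0.16, EPB41L4A-AS1 from -0.016 to 0.22, SNHG8 from -0.19 to 0.16 and SNHG16 from -0.025 to 0.027. The cause of these changes was not tested.

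The replicate numbers were not shown to pair the samples. Over 14245 genes, the deviations of same-numbered libraries had a correlation of 0.029. The replicate block raised the calls over all genes from 41 higher and 14 lower to 485 and 167. The depth limits SNHG22, SNHG25, SNHG21, SNHG26 and SNHG5, which had under 150 counts in each library.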
